A study of Mus musculus with 6 samples.

Results

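The new lncRNAs described here are those that carry a high-copy stretch of sequence. A record was a member when it held a stretch of 25 nt, with at least 8 distinct dinucleotides, that occurred in 50 or more different records, the deposited sequences and their reverse complements being counted together. This rule selected 56 of 8040 deposited new lncRNAs (0.697%, Wilson 95% interval 0.537 to 0.903%). The rule read sequence only and used no expression value or structure.

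The records come from the cortex around the bleeding areas of adult male wild type C57BL/6 mice, given in the methods as C57BL/6 J. In the SAH group, subarachnoid haemorrhage was induced by perforating an artery at the base of the brain from inside with a filament, and tissue was taken at 24 h. The control group, which the labels also call normal, had the same operation without the perforation. Each group had 3 libraries, each of them the pooled lysates of 3 mice, and ribosomal RNA was removed before sequencing. The deposited table pools all libraries into 1 sequence, 1 predicted structure and 1 folding energy per transcript. It holds no value per library, so control and SAH could not be compared for these transcripts and the records give no depth. It also holds no position or strand, so no coordinates are given.

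Interspersed repeats are sequences that spread through a genome by copying themselves to other sites. The short interspersed elements, or SINEs, are transcribed by RNA polymerase III from a promoter inside the element, whose A box and B box bind its transcription factors, and they are inserted through an RNA copy that ends in an A-rich tail. The mouse B1 element is a SINE derived from 7SL RNA, the RNA of the signal recognition particle, and is the rodent relative of the primate Alu element. Copies of such elements lie in the introns and noncoding transcripts of many genes, and copies in opposite directions within the same RNA can pair with each other.

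Only 2 distinct stretches met the rule, and both belonged to a single repeat. Each occurred in 55 records, 50 times in one direction and 5 times in the other, and they overlapped in all but 1 base, so that together they formed 1 run of 26 nt. The commonest qualifying stretch under the limit occurred in 44 records. A further 26 stretches reached 50 records but had under 8 distinct dinucleotides, and these simple repeats were not used. The run is printed here as the sequence that defined the members.

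Run: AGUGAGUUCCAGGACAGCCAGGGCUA

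The complete run was found in 54 members, and 1 member lacked its first base and 1 its last. Every member held exactly 1 such run. When the members were aligned at the run and read in its forward direction, their sequences stayed alike well beyond it. The most common base at each position gave a majority sequence of 128 nt, reaching from 82 nt before the run to position 46 counted from its first base. It is shown with the run in capitals, since it tells which repeat the members share.

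Majority sequence: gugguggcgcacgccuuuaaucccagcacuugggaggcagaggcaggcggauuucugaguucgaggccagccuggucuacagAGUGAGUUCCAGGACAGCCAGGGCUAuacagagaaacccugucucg

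This sequence was recognised from general knowledge as the body of the mouse B1 SINE, a high-copy interspersed repeat, so the label of the set was borne out by its sequence. No library of repeats was used here, and the limits of the majority sequence were set after the members had been aligned. Outside the run, the most common base was shared by 79.6% ± 12.3 of the members compared (mean and SD over positions). In the plot of likeness around the run, the share fell sharply before the majority sequence and more slowly after it, over the A-rich stretch of its tail.

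**Figure D1:**
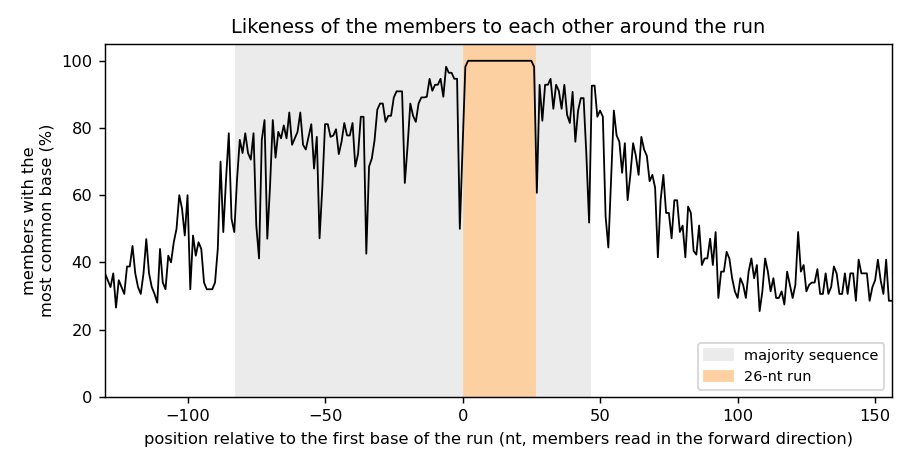
Share of members with the most common base at each position, counted in nt from the first base of the run, with members read in the forward direction. The 26-nt run (orange) is shared by definition, the majority sequence from -82 to 46 (grey) averages 79.6% outside it, and single positions dip within it, such as the base just before the run.

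The run ended where the B1 copies split into versions. The base just before it was G in 28 members, A in 27 and U in 1. The base just after it was U in 34 members, C in 21 and A in 1. No longer stretch could therefore reach 50 records.

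Positions of the CpG dinucleotide, the target of DNA methylation, were among the least alike. The majority sequence contained 5 CpG sites. At their 10 positions the most common base was shared by 57.5% ± 12.3 of members, against 82.0% ± 9.61 at the other 92 positions outside the run. The CpG that lies 21 nt before the run was present in 27 of 55 members compared, and 25.5% had UG or CA there instead. At the other 4 sites UG or CA was the more common, in 39.2 to 51.9% of the members compared, against CpG in 19.6 to 35.2%.

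The flanks were searched for the known parts of a SINE. In the 30 nt that followed the majority sequence, A made up 68.5% ± 15.7 of the bases (SD, n = 53 members), against 32.7% ± 10.7 in the 30 nt before it (n = 49). The 8040 records as a whole averaged 29.3% ± 3.85 A. The majority sequence had been cut just before a stretch of positions with A as the most common base, with no such cut at its start. The high share of A after it was thus partly fixed by that cut. An uninterrupted run of at least 10 A within 100 nt after the high-copy run was present in 14 of 56 members. No such share over the other records is given here, so the count is a description only.

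The core of the B box, searched as GUUCNANNC, was found in the 60 nt before the run in 29 of the 52 members with that many bases there (55.8%, interval 42.3 to 68.4%). On the opposite strand of the same windows it was found in 0 of 52, which allows a share of up to 6.88%. Of 168684 windows of 60 nt in the other records, 1.07% held it on the strand given. The forward strand of the repeat had been chosen, once for all members, as the strand with more of these matches, so their excess on it is no separate result. A match of these letters describes the sequence and was not tested as a functional site.

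The run also resembled a piece of its own repeat that begins 29 nt upstream, an internal duplication known of B1. The pair is shown with the 20 identical bases of 26 in capitals.

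Upstream piece: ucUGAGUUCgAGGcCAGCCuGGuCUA

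Run: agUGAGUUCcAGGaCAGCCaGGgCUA

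The run itself covered a small share of each transcript. The covered share had a median of 1.69% and a mean of 1.82% ± 0.816 (SD, n = 56), with a range of 0.492 to 4.28%. Because every member had 25 or 26 covered bases, this share followed from the length of the transcript. The highest share, 4.28%, was in TCONS_00180733, which at 607 nt was the shortest member. TCONS_00182398 (730 nt, 3.56%), TCONS_00095454 (803 nt, 3.24%), TCONS_00026781 (806 nt, 3.23%) and TCONS_00167428 (828 nt, 3.14%) came next. The lowest share was in TCONS_00130239, the longest member, with 5282 nt. None of these transcripts carries a gene name in the deposited records.

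Most members held far more of the repeat than the run. Alignment of the majority sequence to all records by BLAST found the copy around the run in 55 members, over a median of 127 nt with an identity of 93.4% ± 3.92 (SD, n = 55). In 40 of these 55 the copy reached within 5 nt of both ends of the majority sequence. In the remaining member, TCONS_00241664, no alignment of at least 50 nt was found around the run. Aligned copies together covered 8.69% ± 4.47 of a member (n = 56), against the 1.82% covered by the run.

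The run was found at the start, the middle and the end of transcripts. Its middle lay on average at 50.9% ± 28.5 of the length, with 11 members in the first 25% of the length and 12 in the last 25%. In 5 of the 51 members read forward, fewer than 100 nt followed the run. The shortest such distance, 12 nt, was found in TCONS_00198863 and TCONS_00212851.

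**Figure D2:**
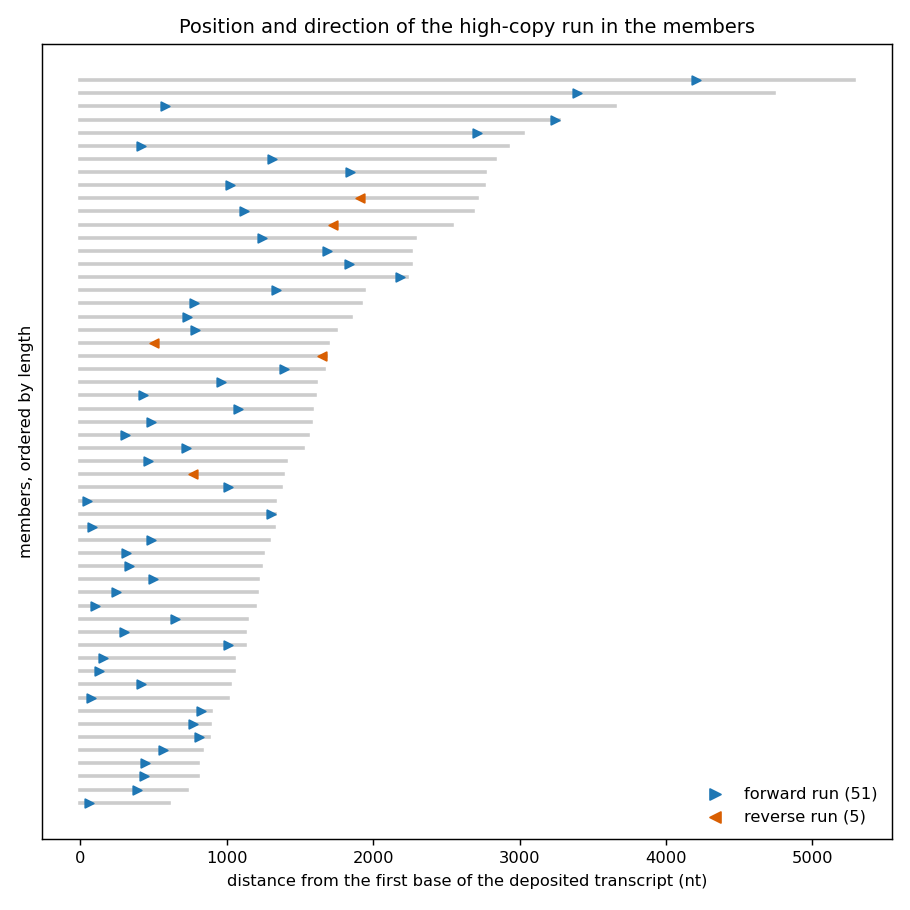
Each grey line is 1 of the 56 members, drawn to scale in nt and ordered by length from 607 to 5282 nt, and the triangle marks the run, pointing right where it is forward (51) and left where it is reverse (5). The runs lie along the whole length of the transcripts, and the reverse runs are in members of 1383 to 2711 nt.

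The run lay mostly in one direction. It was forward, in the direction in which the repeat itself is transcribed and carries its A-rich tail, in 51 of 56 members (91.1%, interval 80.7 to 96.1%). The 5 reverse members were TCONS_00027179, TCONS_00088771, TCONS_00105487, TCONS_00213526 and TCONS_00223098. Choosing the forward strand of the repeat by its A-rich side in place of the B box gave the same 51 and 5. Because that strand was set once for the whole repeat, this choice could change only which direction was called forward and not the split. Members that shared an exact 100 bases formed 2 pairs, TCONS_00161217 with TCONS_00163827 and TCONS_00164567 with TCONS_00167663. With each pair counted once, 49 of 54 were forward. The intervals cover counting error only, and records that share sequence are not independent.

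The direction was then described in records that the rule did not select, in classes chosen after the data were seen. Of the other records whose best match to the run had 1 mismatch, 46 of 56 were forward (82.1%). With 2 mismatches 44 of 55 were forward, with 3 mismatches 42 of 68 (61.8%) and with 4 mismatches 34 of 84 (40.5%). The forward share was thus lower in the classes with more mismatches, and the interval for 4 mismatches, 30.6 to 51.2%, lay below that of the members.

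Copies of at least 50 nt aligned were present in 552 of the 7984 other records (6.91%). Of 594 such copies, 358 were forward (60.3%, interval 56.3 to 64.1%). Identity and length together separated them. Among copies of at least 85% identity, 72 of 75 with at least 120 nt aligned were forward (96.0%, interval 88.9 to 98.6%), but 27 of 43 with 90 to under 120 nt (62.8%, interval 47.9 to 75.6%) and 46 of 85 with 50 to under 90 nt (54.1%, interval 43.6 to 64.3%). Among copies under 85% identity, 76 of 143 with at least 120 nt were forward (53.1%), 77 of 140 with 90 to under 120 nt (55.0%) and 60 of 108 below that (55.6%). The excess of forward copies was therefore largest, of these 6 classes, in the long copies most like the majority sequence. Aligned length also depended on where a record begins or ends. Some short and similar copies began at the first base of their record, as the reverse copy at bases 1 to 74 of TCONS_00121443 and the forward copy at bases 1 to 62 of TCONS_00076827. The part of record ends in these classes was not tested.

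The members' own copies of at least 85% identity were mostly forward whatever their length. With at least 85% identity and at least 120 nt aligned, 39 of 40 were forward (97.5%, interval 87.1 to 99.6%), and the exception was TCONS_00223098, with 128 nt at 92.2%. Of the members' copies of that identity, 6 of 7 with 90 to under 120 nt were forward (85.7%). Of those with 50 to under 90 nt, 4 of 5 were forward (80%). The share was thus lower in the shorter copies here too. These counts are too small to compare that fall with the one in the other records. Under 85% identity, 0 of 1 copy with 90 to under 120 nt and 1 of 2 with at least 120 nt were forward. The other reverse members had either a short copy, as the 57 nt of TCONS_00213526 and the 96 nt of TCONS_00105487, or one under 85% identity, as in TCONS_00027179 and TCONS_00088771. The copy of TCONS_00213526, with 100% identity, reached base 1676 of a record of 1678 nt, so the record ended within the repeat. With each group of other records that share 100 bases counted once per direction, 65 of 68 long and similar copies were forward. No test was run on these classes, and the majority sequence itself was built from members that were mostly forward.

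RefSeq promoters of GRCm38.p6, 300 nt around each gene start and read on the strand of the gene, gave values from outside the transcripts. A high-copy stretch was found in 14 of 32851 promoters (0.0426%), 6 forward and 8 reverse. With up to 3 mismatches to the run, 45 of 75 were forward (interval 48.7 to 70.3%). Of 189 aligned copies in the 32544 distinct promoter sequences, 96 were forward (50.8%, interval 43.7 to 57.8%). Only 6 of them had at least 85% identity and at least 120 nt, 4 forward and 2 reverse, so the class with the largest excess among the transcripts could not be compared. No hairpin among 1005 RefSeq miRNA hairpins came within 3 mismatches of the run.

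**Figure D3:**
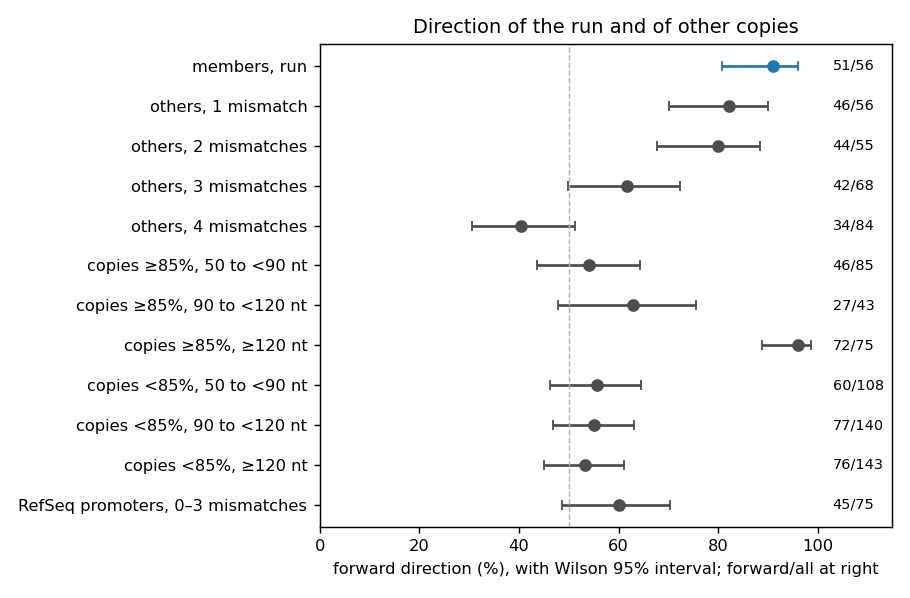
Percent of runs or copies in the forward direction (points) with Wilson 95% intervals (bars), and the counts forward/all at the right; copies are classed by identity to the majority sequence and by aligned length. The members (91.1%) and the long copies of at least 85% identity (96.0%) are highest, and the classes under 85% identity lie between 53.1 and 55.6%.

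Open reading frames are given beside the direction, because the authors kept only transcripts without coding potential. Whether that step read one strand or both is not given in the sources used here. The majority sequence read backwards has 1 frame without a stop codon over its whole length, whereas each of its 3 forward frames has 1 stop. Read on the opposite strand, an AUG-to-stop frame of 100 codons or more was present in 13 of 56 members (23.2%, interval 14.1 to 35.8%) and in 600 of all 8040 records (7.46%, interval 6.91 to 8.06%). Members averaged 1779 nt against 1297 nt in the other records, and the part of length in holding such a frame was not tested. Such a frame was present in 10 of the 51 forward members and in 3 of the 5 reverse ones. It ran across the whole high-copy run in 5 of those forward members, the longest being 188 codons in TCONS_00071222, and in 2 of the reverse ones, TCONS_00105487 and TCONS_00223098. In the reverse members the opposite strand reads the repeat forward, not backwards. Among the 75 long and similar copies in other records, the complement of the record held such a frame in 7 (9.33%). The part of coding frames in the excess of forward copies was not tested.

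Members were longer than the other records. Their length averaged 1779 nt ± 955 (SD, n = 56), against 1297 nt ± 787 (n = 7984), and 29 of 56 were among the 25% of records with the greatest length. Members made up 0.248% of records of up to 849 nt, 0.349% of those of 850 to 1117 nt, 0.747% of those of 1118 to 1489 nt and 1.44% of the longer ones. Per 1000000 nt of sequence this was 3.77, 3.55, 5.82 and 6.34 members, so the spread was smaller when the amount of sequence was taken into account.

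The GC content was 43.2% ± 5.01 in members and 41.8% ± 5.69 in the others. The deposited folding energy was -29.7 kcal/mol per 100 nt ± 3.59 in members and -28.1 ± 4.38 in the others. The share of paired bases over the whole transcript was 58.5% ± 2.90 against 58.6% ± 3.28. These differences were not tested. Within each of the 4 length classes the mean energy per 100 nt was lower and the mean GC content higher in members, whereas the paired share was lower in 3 classes and higher in 1. From short to long, the classes held only 5, 7, 15 and 29 members. Each of these differences was smaller than the SD over the members of its class.

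Pairing of the run was read from the deposited structures, which are predictions of the lowest energy fold and not measurements. On average 64.5% ± 12.3 of the run was paired, against 58.4% ± 3.03 of the rest of the same transcripts (SD, n = 56). The difference of 6.09 percentage points had an SD of 13.1 and ranged from below to above 0, the run being the more paired in 33 of 56 members (58.9%, interval 45.9 to 70.8%). With only pairs in stems of at least 3 stacked pairs counted, the difference was 3.69 points. The run was richer in GC than the rest of its transcript by 14.9 percentage points ± 5.09, and the part of GC content in its pairing was not tested. In the 179 other records with 1 to 3 mismatches and a single best direction, the matching window was paired at 63.0% ± 10.8 and the rest at 58.6% ± 3.43. The difference between window and rest was 4.43 percentage points in these imperfect copies, and it was not tested against that of the members.

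**Figure D4:**
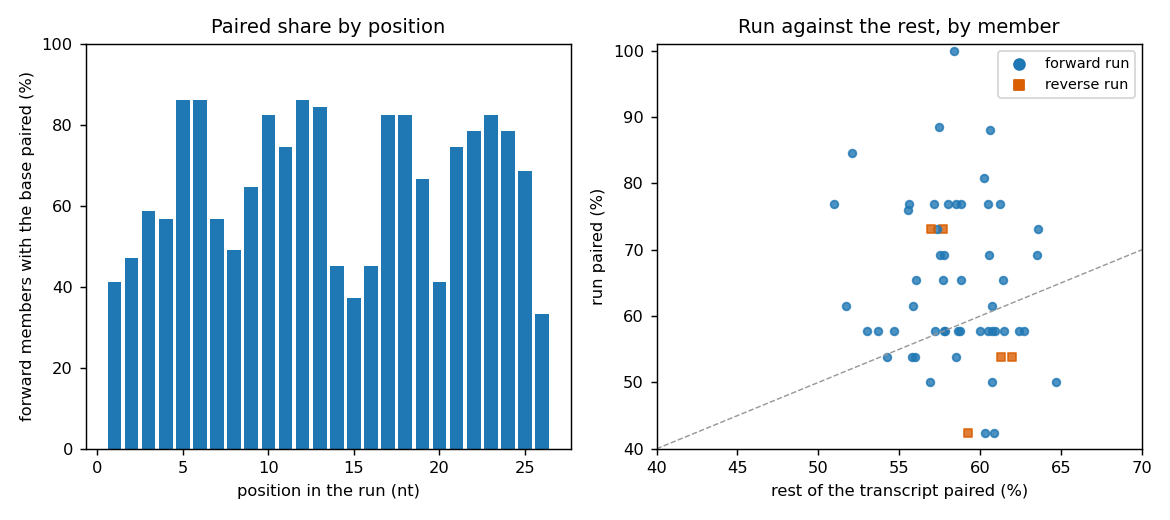
Left, percent of the 51 forward members in which each of the 26 positions of the run is paired in the deposited structure; right, percent of the run paired against percent of the rest of the transcript paired, 1 point per member, with the line of equal values dashed. Positions 5, 6 and 12 are the most often paired (86.3%) and position 26 the least (33.3%), and 33 of 56 members lie above the line.

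Within the run, pairing rose and fell by position. In forward members, positions 5, 6 and 12 were each paired in 44 of 51 (86.3%), position 13 in 43, and positions 10, 17, 18 and 23 in 42. Position 26 was paired in 17, position 15 in 19 and positions 1 and 20 in 21. The positions paired in over 60% of forward members formed 4 blocks, at 5 to 6, 9 to 13, 17 to 19 and 21 to 25.

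The same hairpin recurred in different transcripts. It joined bases 5 to 19 of the run to the piece just upstream of it in the same copy, through 10 pairs, and is printed from the majority bases with the paired bases in capitals, from 18 nt before the run to its position 19.

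Recurrent hairpin: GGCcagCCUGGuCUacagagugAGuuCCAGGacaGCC

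All 10 pairs were present in 11 of 51 forward members (21.6%, interval 12.5 to 34.6%) and at least 1 of them in 13. Among the members with all of them were TCONS_00167428 and TCONS_00182398, both of high covered share. Bases 21 to 25 of the run were paired with those 21 to 25 nt before it in 9 of 51 forward members. The printed hairpin leaves those further pairs out. In the 40 forward members without the whole hairpin, the run was paired at 67.2% ± 12.9. With it the value was 57.3% ± 2.69 (n = 11), and the choice of members by these 10 pairs fixed 10 of the 26 run bases as paired.

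Partners of the run were read base by base. Of 938 paired bases of the runs, 68 had their partner inside the run (7.25%), 338 in the rest of the same copy (36.0%), 49 in an inverted second copy (5.22%), 0 in a second copy of the same direction and 483 elsewhere in the transcript (51.5%). In 18 members every partner lay in the run or its own copy, and in 17 none did. Many runs thus folded within the repeat, and others paired with distant bases of the transcript. The farthest partner lay at a median distance of 282.5 nt.

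Pairing between 2 high-copy runs could not occur, because each member had 1 run. No member had runs in both directions, and no stem of 20 or more stacked pairs joined 2 runs. Pairing of the run with a less perfect second copy was seen in 2 members. A second aligned copy was present in 6 members, in the opposite direction in TCONS_00026070, TCONS_00128861 and TCONS_00229577 and in the same direction in TCONS_00066123, TCONS_00136433 and TCONS_00243294.

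TCONS_00229577, a transcript of 3022 nt chosen after its values were seen, was the only member with all 26 bases of the run paired. Its run lay at bases 2693 to 2718 and paired with an inverted copy of 94.2% identity, aligned over 69 nt, at bases 2840 to 2908. The stem comprised 58 pairs, 55 of them Watson-Crick and 3 G-U, and its longest uninterrupted stretch was 41 pairs. Both arms are printed, with paired bases in capitals, because this duplex held a whole run.

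Arm with the run, bases 2678 to 2737: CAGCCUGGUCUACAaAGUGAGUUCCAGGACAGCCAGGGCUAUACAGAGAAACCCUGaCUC

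Inverted arm, bases 2841 to 2900: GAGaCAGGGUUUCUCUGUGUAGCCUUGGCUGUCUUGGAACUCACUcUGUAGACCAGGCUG

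In TCONS_00026070, 23 of the 26 run bases were paired and all 23 partners lay in an inverted copy of 74.4% identity, up to 782 nt away. The longest uninterrupted stretch touching that run was 13 pairs. In TCONS_00128861, by contrast, an inverted copy of 74.1% identity was present, but none of the 21 paired run bases had a partner in it. TCONS_00229577 also held a further inverted copy, at bases 471 to 576 with 75.9% identity, that held no partner of the run. Counted by copies, 2 of 4 inverted copies were paired with the run. Over all 56 members the longest stretch of pairs touching the run averaged 7.57 ± 5.23, and in 8 members it was at least 10 pairs.

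**Figure D5:**
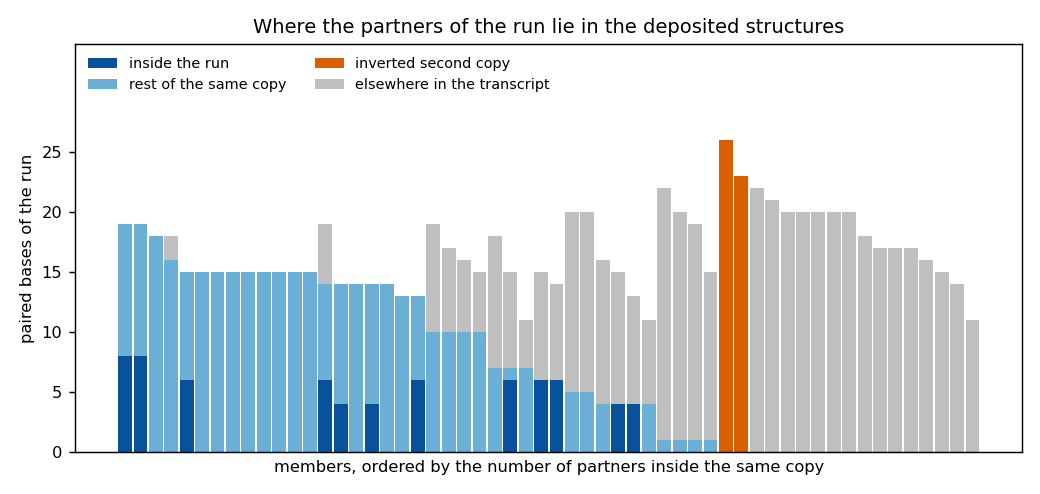
Each bar is 1 of the 56 members and its height is the number of paired bases of the run, coloured by where the partner lies in the deposited structure. In 18 members all partners lie in the run or its copy (blue only), and the 2 orange bars are the members whose run paired with an inverted copy, at 26 and 23 bases.

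The 5 reverse members overlapped with the forward ones in pairing. Their runs were paired at 59.2% ± 13.5 (n = 5), against 65.1% ± 12.2 in the forward members (n = 51). The reverse values were 73.1% in TCONS_00027179 and TCONS_00213526, 53.8% in TCONS_00088771 and TCONS_00105487, and 42.3% in TCONS_00223098. Of the 56 members, 20 shared an exact 100 bases, on either strand, with at least 1 other record. The share over all records is not given here, so the count is a description only. Why these records share sequence was not tested.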

How the data were processed

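RNA of 6 libraries, 3 of control and 3 of SAH cortex, was sequenced as paired-end reads on an Illumina instrument. Per the labels, one cDNA strand was marked with deoxy-UTP, and the processing notes of the submitters name TopHat2 and the build mm10. The authors assembled transcripts, kept those above 200 nt that were neither known mRNAs nor known lncRNAs and lacked coding potential, and deposited the sequence, predicted structure and free energy of each, in kcal/mol, pooled over libraries. How the strand was set, and the settings of the folding, are not given in the sources used here. The deposited records give no depth per library. The study states read totals for a control and an SAH sample, which were not used here, and the effect of depth on which repeats were assembled was not tested. Reads from near-identical repeat copies can be joined wrongly by an assembler, and this was not tested either.

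Stretches of 25 nt were counted once per record over both strands, and overlapping high-copy stretches were merged into runs. The majority sequence was extended from the run while the most common base averaged at least 60% over 10 positions. At its far end, the closing positions with A as the most common base were then cut off. At its start, positions where the most common base was under 60% were cut off. Copies were aligned to it with blastn (BLAST+ 2.17.0, word size 11, e-value 1e-6, at least 50 nt). The forward strand was set once for the whole repeat, as the one with more B box cores within 60 nt of the runs, and each run or copy was then read against it. Pairs were read from the deposited brackets, and stems are stacked pairs. Intervals are Wilson 95% intervals. No p-value was computed, since records are not replicates and no value per library is held. The transcripts named are the 5 of highest covered share, those with the most covered bases and the most runs (both ties, taken by identifier as TCONS_00006091, with 1124 nt and 2.31% covered) and the longest and shortest members, and others were named after their values were seen. The members and lists were chosen with earlier results of these data known. The majority sequence, the identity, length and mismatch classes, the hairpin and the frame measures were chosen after the data were seen. Promoters, miRNA hairpins and their names came from RefSeq tables. Scripts in Python 3.11.15 with numpy 2.4.6 and matplotlib 3.10.9 were tested on simulated data of 300 records, where 80 of 80 planted stretches were found with their direction.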

Additional observations from a re-analysis of the deposited data

How the results depend on the processing

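The number of members depended most on the limits of the rule. With 30 records in place of 50 there were 182 members, in 5 linked groups of stretches, with a median covered share of 2.70%, and 2.11% of paired repeat bases paired with an opposite run of their group, 2 members held runs in both directions and 2 had a long repeat stem. With stretches of 20 nt there were 272 members in 5 groups, 78.6% of runs were forward, 1.39% of paired bases paired with an opposite run, 4 members held both directions and 2 had a long repeat stem. All 50 stretches of the first setting and all 32 of the second were within 1 mismatch of the B1 majority sequence, so these groups are pieces of that repeat and not other repeats. With 100 records or with stretches of 31 nt there were 0 members, so no other value could be given. With up to 3 mismatches to the run, an alternative chosen after seeing the data, there were 235 records with 1 best direction, of which 77.9% were forward. With 6 or 10 distinct dinucleotides the same 56 members were selected, so no value could differ. With records sharing 100 bases counted once there were 54 members, 90.7% forward. The difference in pairing between run and rest was 5.62 points in members of at most 1500 nt and 3.69 points in stems of at least 3 pairs. The differences between run and rest, and those between members and other records, kept their sign. Counts and shares cannot change sign. Of the 50 alternative values, 16 were classed as moved and 34 as the same, by a limit for each kind of value.

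No paired analysis was possible because the deposited records pool all libraries and hold no value per replicate. The strand set at assembly limits the direction of the copies: a transcript placed on the wrong strand would count as the opposite direction.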

Other observations

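Below the limit of 50 records, other repeated sequences were present among the new lncRNAs. Stretches with at least 8 distinct dinucleotides in 10 or more records numbered 425 and formed 43 linked groups, of which 8 came within 6 mismatches of the B1 majority sequence. The group of the run itself was the largest, with 225 linked stretches. The commonest stretches of the groups outside B1 are shown, because they give the linked groups that came nearest to the rule. Different linked groups need not be different repeats.

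In 24 records: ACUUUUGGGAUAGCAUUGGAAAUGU

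In 21 records: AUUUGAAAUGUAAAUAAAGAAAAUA

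In 15 records: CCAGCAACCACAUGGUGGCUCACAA

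The stretch in 15 records was recognised from general knowledge as part of the mouse B2 SINE, another short element transcribed by RNA polymerase III, and the first pair were not named. The end of the stretch in 24 records resembled the start of the one in 21 records. Whether this pair belongs to a single repeat was not tested. The best matches of these 3 stretches to the B1 majority sequence had 12, 9 and 13 mismatches. None of them was used in the results above.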
